A study of Rattus norvegicus with 23 samples.

Results

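Transcript levels of 6 genes of the integrated stress response were followed in 3D aggregates of rat brain cells: Atf3 (ENSRNOG00000003745), Atf4 (ENSRNOG00000017801), Ddit3 (ENSRNOG00000006789), Trib3 (ENSRNOG00000007319), Asns (ENSRNOG00000007546) and Hspa5 (ENSRNOG00000018294). They were chosen by Ensembl identifier, with no threshold on their values, and are 6 of the 32494 genes counted. Reads were found for all 6 in all 23 libraries, and all 6 passed the filter on low counts.

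The integrated stress response is the pathway by which a cell lowers general protein synthesis when its translation factor eIF2 is phosphorylated, by kinases that sense amino acid shortage, misfolded protein in the endoplasmic reticulum (ER), heme deficiency or double-stranded RNA. The same phosphorylation favours translation of the Atf4 transcript, so that ATF4 protein can rise with no change of its mRNA. ATF4 then activates genes for amino acid supply and, when stress lasts, genes that promote cell death. In the ER a related program, the unfolded protein response, raises chaperones such as the product of Hspa5.

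The aggregates came from brain of Sprague Dawley rats at embryonic day 15 and were cultured for 14 days with constant shaking. Control aggregates received phosphate-buffered saline and were taken at 0, 6, 12 and 24 hours (T0, T6, T12 and T24). Treated aggregates received 120 ng/ml sepiapterin, a precursor that cells turn into the cofactor tetrahydrobiopterin, and were taken at T6, T12 and T24. The comparisons therefore ask what added sepiapterin does to gene expression in developing brain tissue. Each of these 7 groups had 3 libraries, and T12 controls 10 and 11 had 1 repeat library each. By the labels T6 and T12 libraries were prepared in 1 batch and T24 libraries with the repeats in another, while T0 is placed in neither.

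Between 16991417 and 26588314 reads fell in genes per library. For T12 controls 10 and 11 the titles and the headers inside the files name the first and the repeat library the opposite way round. Titles were used, and values by header are given where they change a call. T0 control replicate 1 stood apart from replicates 2 and 3, by root mean square distances of 0.364 and 0.393 in log2 CPM (counts of a gene relative to all counts of the library), while replicates 2 and 3 were 0.253 apart and no pair within the remaining groups exceeded 0.301. The labels do not tie the libraries of a group to separate cultures, and p-values here therefore rest on a spread that may be technical. The libraries hold bulk RNA, in which fewer cells of a type and less RNA per cell cannot be told apart. The files give no gene symbols and 0 of the 32494 identifiers could be matched to the reference table, so markers of cell types and the other genes of the pathway were not analysed here.

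The promoters of the 4 genes that passed a test below and have an entry in RefSeq (build GRCr8) are shown because the responses to ER stress and to amino acid shortage act through short elements near the start of these genes. Each line gives the 250 bases before the start of transcription, 5′ to 3′ on the gene's own strand, with matched elements in capitals, except that CCAAT or CCACG outside a longer element stays in lower case. Of the 6 genes 5 had an entry, and Atf3 had none. The Hspa5 stretch is chr3:38452766-38453015 on the plus strand, that of Ddit3 chr7:65001445-65001694 on the plus strand, that of Trib3 chr3:161275534-161275783 on the minus strand and that of Asns chr4:36769416-36769665 on the minus strand.
Hspa5: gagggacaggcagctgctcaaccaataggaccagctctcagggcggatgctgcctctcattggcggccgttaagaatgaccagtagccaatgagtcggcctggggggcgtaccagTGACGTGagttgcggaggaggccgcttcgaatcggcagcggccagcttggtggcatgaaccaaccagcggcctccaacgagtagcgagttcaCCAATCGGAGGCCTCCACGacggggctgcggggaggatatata
Ddit3: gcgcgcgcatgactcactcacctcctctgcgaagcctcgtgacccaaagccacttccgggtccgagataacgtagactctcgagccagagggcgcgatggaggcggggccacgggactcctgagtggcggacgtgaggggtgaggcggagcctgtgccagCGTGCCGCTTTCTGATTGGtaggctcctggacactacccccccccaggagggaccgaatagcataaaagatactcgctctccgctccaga
Trib3: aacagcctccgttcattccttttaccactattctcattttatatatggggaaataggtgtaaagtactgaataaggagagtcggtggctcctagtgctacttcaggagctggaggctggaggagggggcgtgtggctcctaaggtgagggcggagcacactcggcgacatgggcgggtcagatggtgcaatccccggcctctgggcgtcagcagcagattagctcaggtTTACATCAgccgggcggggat
Asns: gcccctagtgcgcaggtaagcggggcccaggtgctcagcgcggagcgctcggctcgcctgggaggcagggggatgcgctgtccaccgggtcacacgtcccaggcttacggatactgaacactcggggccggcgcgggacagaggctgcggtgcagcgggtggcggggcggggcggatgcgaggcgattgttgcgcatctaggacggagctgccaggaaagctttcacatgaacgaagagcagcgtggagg

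Elements were searched on both strands. The ER stress element, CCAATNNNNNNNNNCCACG, is bound by ATF6 with NF-Y, and it occurred in Hspa5 from 43 to 25 bases before the start. It was present in 22 of 33469 such promoter stretches, or 0.0657%. Hspa5 also held TGACGTG, the core of the element bound by XBP1 and ATF6, from 135 to 129 bases before the start, as did 1.54% of promoters. Its stretch had 4 copies of CCAAT, the first part of the ER stress element, and 1 of these lies inside the full element.

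Ddit3 held no exact ER stress element. A looser form, CCAATNNNNNNNNNNCACG, was added after the sequences were seen. It matched Ddit3 on the opposite strand from 90 to 72 bases before the start, it overlaps the CCAAT copy there, and 0.173% of promoters hold it. Trib3 held TGATGNAA, the core of the composite element to which ATF4 binds with a C/EBP partner, on the opposite strand from 21 to 14 bases before the start, as did 3.40% of promoters. The cyclic AMP response element TGACGTCA, present in 1.59% of promoters, was in none of the 5 promoters. In Asns, of these letters only CCACG, the last part of the ER stress element, was found, on the opposite strand from 8 to 4 bases before the start, and 27.2% of promoters hold it. Ddit3 also held CCACG, from 142 to 138 bases before the start. These matches are descriptions of letters in this window.

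The plot of levels shows every library, as CPM after TMM scaling, a correction for differences in library composition. Levels here are not divided by transcript length, so values are compared between libraries and not between genes. Where groups are said not to overlap, this describes the libraries of that gene only. The share of all genes with such groups was not computed.

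**Figure D1:**
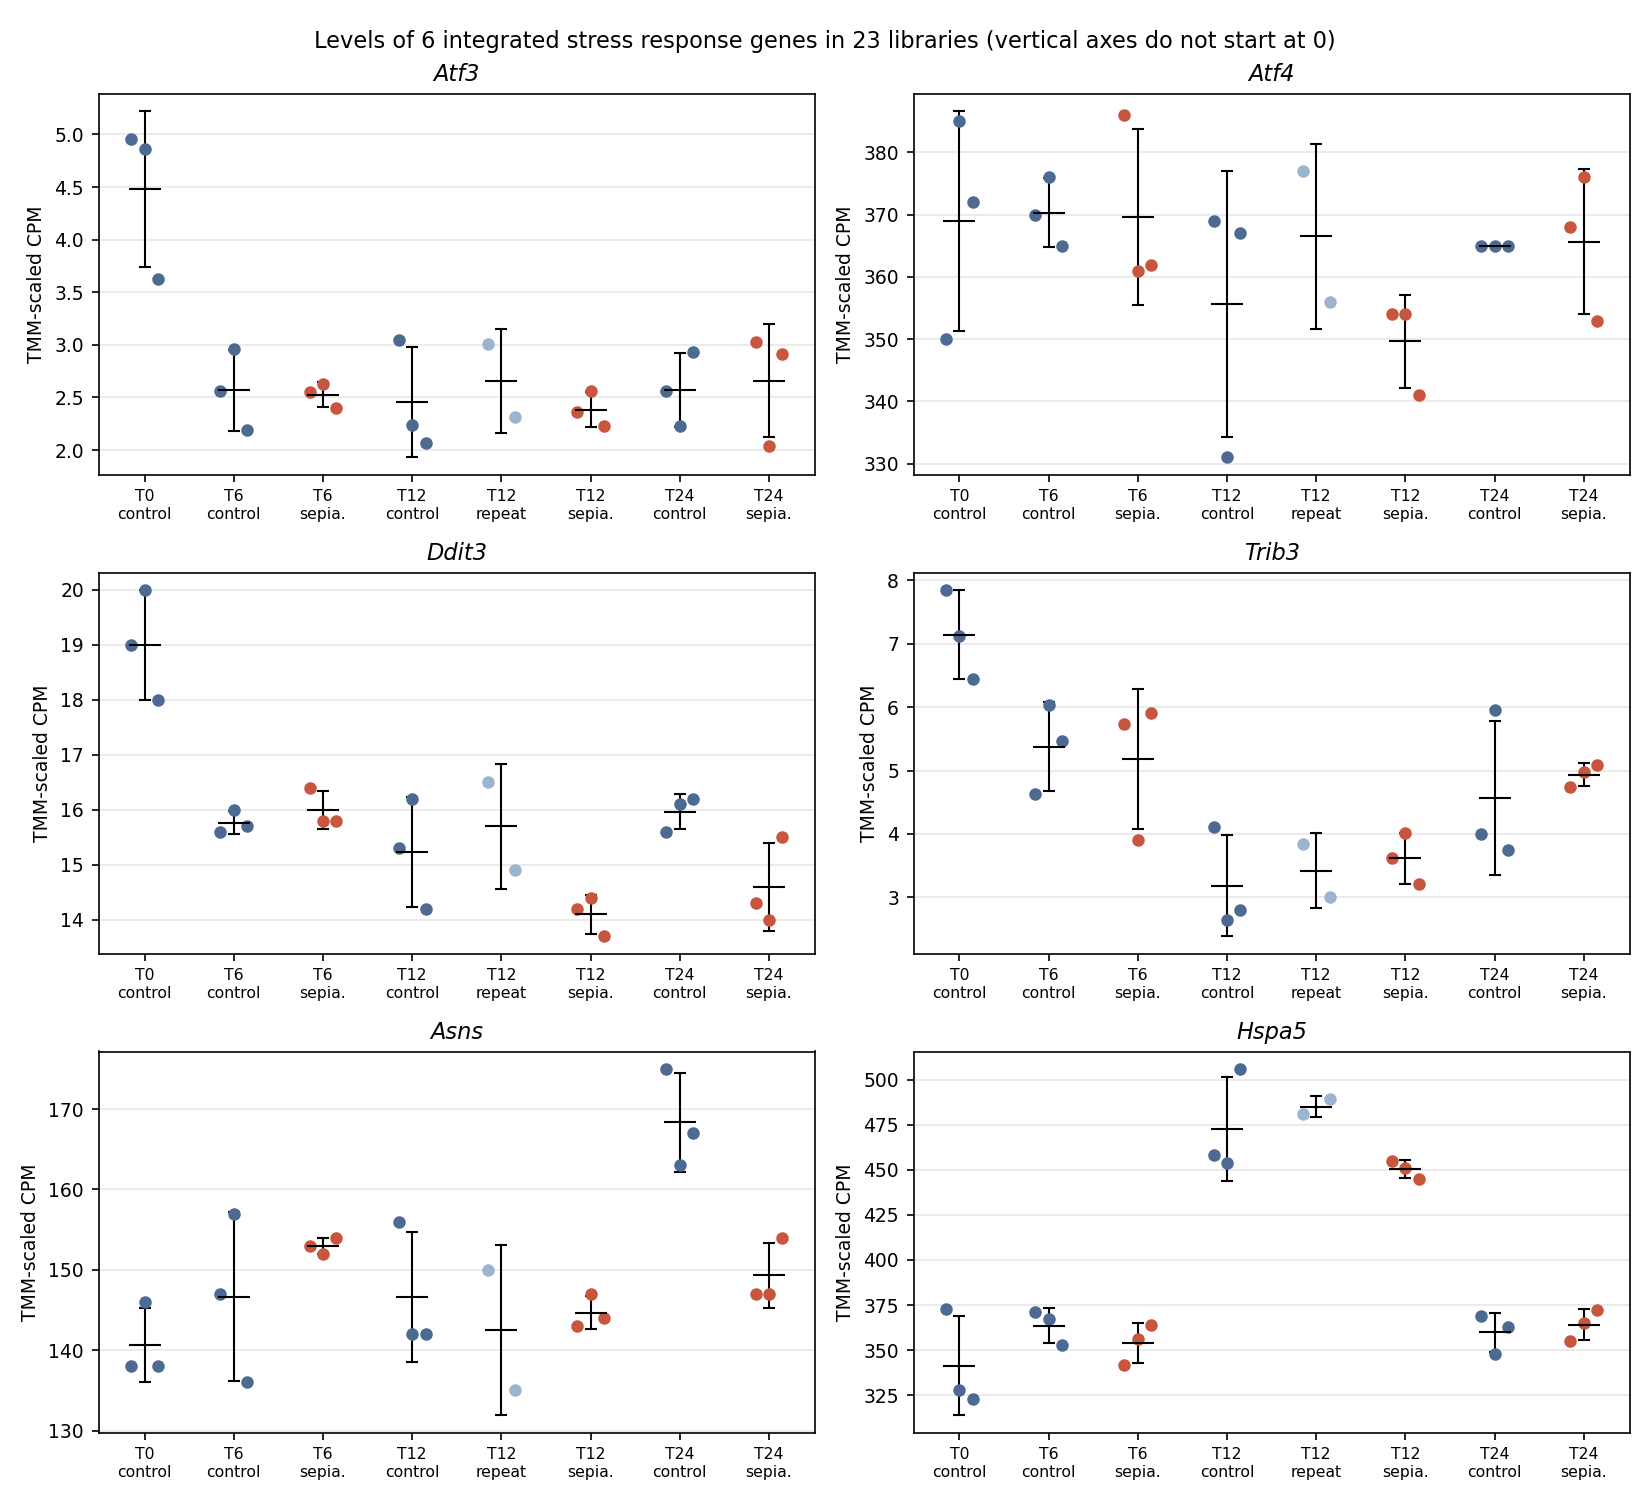
TMM-scaled CPM of the 6 genes (vertical axes, which do not start at 0) in the 8 sets of libraries (horizontal axes), with 1 point per library (dark blue for controls, light blue for repeats, red for sepiapterin) and black lines at the mean ± SD of each set. Atf3, Ddit3 and Trib3 had their highest group mean at T0, and Hspa5 lay between 445 and 506 CPM at T12 against 323 to 373 CPM at all other times.

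Atf4, which encodes the transcription factor at the centre of the response, had nearly level transcripts in all groups. Its libraries stood at 350, 385 and 372 CPM in T0 controls and at 370, 376 and 365 CPM in T6 controls. They stood at 369, 331 and 367 CPM in T12 controls and at 365 CPM in each of the 3 T24 controls. With sepiapterin the values were 386, 361 and 362 CPM at T6, 354, 354 and 341 CPM at T12, and 368, 376 and 353 CPM at T24. Group means ran from 350 CPM with sepiapterin at T12 to 370 CPM in T6 controls, and neighbouring groups in that order overlapped throughout. Groups further apart did not always overlap: with sepiapterin all T12 libraries lay below all T6 libraries. In the 4 comparisons between times the log2 fold changes of Atf4 were 0.00, -0.06, -0.08 and -0.01, and none passed the test. Their 95% intervals together spanned -0.17 to 0.10.

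Between T0 and T6 the stress-induced transcription factors Atf3 and Ddit3 fell in control aggregates. Of the 6 genes 2 passed the test (edgeR quasi-likelihood test, Benjamini-Hochberg adjusted p under 0.05 over 14035 genes), both lower at T6, beside 21.6% of all genes tested. The median log2 fold change of the 6 was -0.13, and over all genes it was -0.01. This median describes no shared decline. Atf3, Trib3 and Ddit3 were lower, at -0.79, -0.40 and -0.27, while Atf4, Asns and Hspa5 stood at 0.00, 0.06 and 0.09. The median size of change, without regard to sign, was 0.18 for the 6 and 0.13 over all genes.

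Atf3, an early-induced factor of the bZIP family, stood at 4.96, 4.86 and 3.63 CPM at T0 and at 2.56, 2.96 and 2.19 CPM at T6. The groups did not overlap, and the level fell 1.73-fold, a log2 fold change of -0.79 ± 0.17 (SE; adjusted p 0.0015). No later group reached the T0 libraries: means after T0 lay between 2.38 and 2.66 CPM and overlapped with each other. Atf3 was covered by only 34 to 110 reads per library.

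Ddit3 encodes CHOP, a factor that promotes cell death under lasting ER stress. It stood at 19.0, 20.0 and 18.0 CPM at T0 and at 15.6, 16.0 and 15.7 CPM at T6. It fell 1.20-fold, by 0.27 ± 0.07 on the log2 scale (adjusted p 0.0054), and again the groups did not overlap. After T0 its group means ranged from 14.1 CPM with sepiapterin at T12 to 16.0 CPM with sepiapterin at T6, and each group overlapped with the next in order.

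Without T0 control replicate 1 the log2 fold changes of Atf3 and Ddit3 were -0.70 (adjusted p 0.0062) and -0.26 (adjusted p 0.013), so both still passed. Across the alternatives run, adjusted p-values lay between 0.00039 and 0.025 for Atf3 and between 0.00039 and 0.043 for Ddit3. Batch and time cannot be told apart in this comparison, since no batch is labelled for T0.

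Trib3, a pseudokinase that ATF4 and CHOP induce and that restrains AKT and ATF4 itself, moved in the same direction from T0 to T6 but did not pass the test. Its libraries stood at 7.85, 7.12 and 6.45 CPM at T0 and at 4.63, 6.03 and 5.47 CPM at T6, with no overlap, and the log2 fold change was -0.40 ± 0.16 (adjusted p 0.082). Asns, the enzyme that makes asparagine and a direct ATF4 target, differed by 0.06 ± 0.05 on the log2 scale (adjusted p 0.42). Hspa5, the main ER chaperone of the HSP70 family (BiP), stood at 373, 328 and 323 CPM at T0 and at 371, 367 and 353 CPM at T6. Its log2 fold change of 0.09 ± 0.05 did not pass (adjusted p 0.21), but without T0 control replicate 1, its highest T0 library, it was 0.17 with an adjusted p of 0.0094, beside 22.6% of all genes called. With limma voom and quality weights it was 0.15 with an adjusted p of 0.0032, beside 33.6%, and the alternatives together gave adjusted p-values from 0.0032 to 0.58.

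Between T6 and T12 Hspa5 rose in control and in sepiapterin aggregates, and Trib3 fell in controls. These libraries are of 1 batch by label. Of the 6 genes 2 passed in controls, beside 4.67% of all genes, and 1 passed with sepiapterin, beside 4.37%. The shares of all genes moved with single libraries. In controls the share was 9.87% without T12 control replicate 3, between 0.543% and 1.67% without any other library of the comparison, and 1.19% by file header. With sepiapterin it was 2.81%, 3.42% and 0.693% without T12 replicates 1, 2 and 3, and 0.70%, 1.03% and 3.97% without T6 replicates 1, 2 and 3.

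Hspa5 went from 371, 367 and 353 CPM in T6 controls to 458, 454 and 506 CPM in T12 controls. Every T12 library lay above every T6 library, and the 1.30-fold rise, a log2 fold change of 0.38 ± 0.05 (adjusted p 0.00018), had the 8th smallest p-value of 14035 genes. With sepiapterin Hspa5 went from 342, 356 and 364 CPM to 455, 451 and 445 CPM. That 1.27-fold rise had a log2 fold change of 0.35 ± 0.05 (adjusted p 0.00051) and the 10th smallest p-value.

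The rise of Hspa5 in the sepiapterin libraries shares no library with the rise in the controls. The difference between them was -0.03 on the log2 scale, with a 95% interval of -0.18 to 0.12 (adjusted p 0.94). By file header the rise in controls was 0.43 on the log2 scale. In the alternatives its adjusted p went from 1.6e-09 to 0.0041 in controls and from 5.4e-08 to 0.0094 with sepiapterin.

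Trib3 stood at 4.11, 2.65 and 2.80 CPM in T12 controls, all below the 3 T6 controls given above. It fell 1.69-fold, by 0.76 ± 0.19 on the log2 scale (adjusted p 0.022). The call rested on single libraries: the adjusted p was 0.13 without T12 control replicate 2, 0.05 without T12 control replicate 3, 0.098 without T6 control replicate 2 and 0.084 without T6 control replicate 3. Over the alternatives it ranged from 0.0063 to 0.13, and the log2 fold change from -0.98 to -0.64. With sepiapterin Trib3 went from 5.73, 3.91 and 5.91 to 3.62, 4.02 and 3.21 CPM, a log2 fold change of -0.51 ± 0.18 (adjusted p 0.097) with overlapping groups. The call in controls alone does not show a different course with sepiapterin, and the effect of sepiapterin on Trib3 did not differ between T12 and T6 beyond its error (adjusted p 0.84).

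Atf3, Ddit3 and Asns did not pass between T6 and T12 in controls, with log2 fold changes of -0.08, -0.05 and 0.00. With sepiapterin Ddit3 went from 16.4, 15.8 and 15.8 CPM to 14.2, 14.4 and 13.7 CPM with no overlap. Its log2 fold change of -0.18 ± 0.07 did not pass (adjusted p 0.11, and 0.042 to 0.35 in the alternatives). Asns with sepiapterin was also lower at T12 with no overlap. Its log2 fold change of -0.08 ± 0.05 did not pass (adjusted p 0.36). The T6 controls serve in both control comparisons given so far, so a T6 value that is high or low by chance would move them in opposite directions.

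Between T12 and T24 Hspa5 fell in controls and Asns rose. This was measured against the libraries titled as repeats, which by title lie in the batch of T24, and 2 of the 6 genes passed, beside 5.54% of 13653 genes. That share was 0.58% by file header, 0.159% and 0.324% without repeats 1 and 2, and 8.88%, 1.55% and 1.57% without T24 control replicates 1, 2 and 3. Hspa5 stood at 481 and 489 CPM in the repeats and at 369, 348 and 363 CPM at T24. It fell 1.35-fold, a log2 fold change of -0.43 ± 0.05 (adjusted p 0.00019), and its p-value was the 5th smallest in this comparison. If the file headers are right, the libraries titled 10 and 11 are the repeats. Against those the log2 fold change was -0.34 (adjusted p 0.0035), and the alternatives gave adjusted p-values from 2.8e-12 to 0.017. In CPM the T24 controls overlapped with the T6 controls, and the higher level of Hspa5 was seen at T12 and at no other time sampled. By label T6 and T24 lie in different batches and T0 in neither, and T24 was not tested against T6 or T0. The repeats are further libraries of T12 controls 10 and 11, which also serve in the rise from T6. A value that is high by chance in these samples would therefore move both the rise and the fall in controls.

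Asns stood at 150 and 135 CPM in the repeats and at 175, 163 and 167 CPM in T24 controls, the highest group mean of this gene. It rose 1.18-fold, by 0.24 ± 0.06 on the log2 scale (adjusted p 0.022). By file header the log2 fold change was 0.17 and the call was lost (adjusted p 0.21). It was also lost without T24 control replicate 2, T24 control replicate 3, repeat 1 or repeat 2, at adjusted p-values of 0.056, 0.06, 0.11 and 0.28, where all alternatives lay between 0.0038 and 0.28. Trib3 stood at 3.84 and 3.00 CPM in the repeats and at 4.0, 5.96 and 3.74 CPM in T24 controls, a log2 fold change of 0.42 ± 0.20 (adjusted p 0.21). Atf3, Atf4 and Ddit3 had log2 fold changes of -0.05, -0.01 and 0.03.

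**Figure D2:**
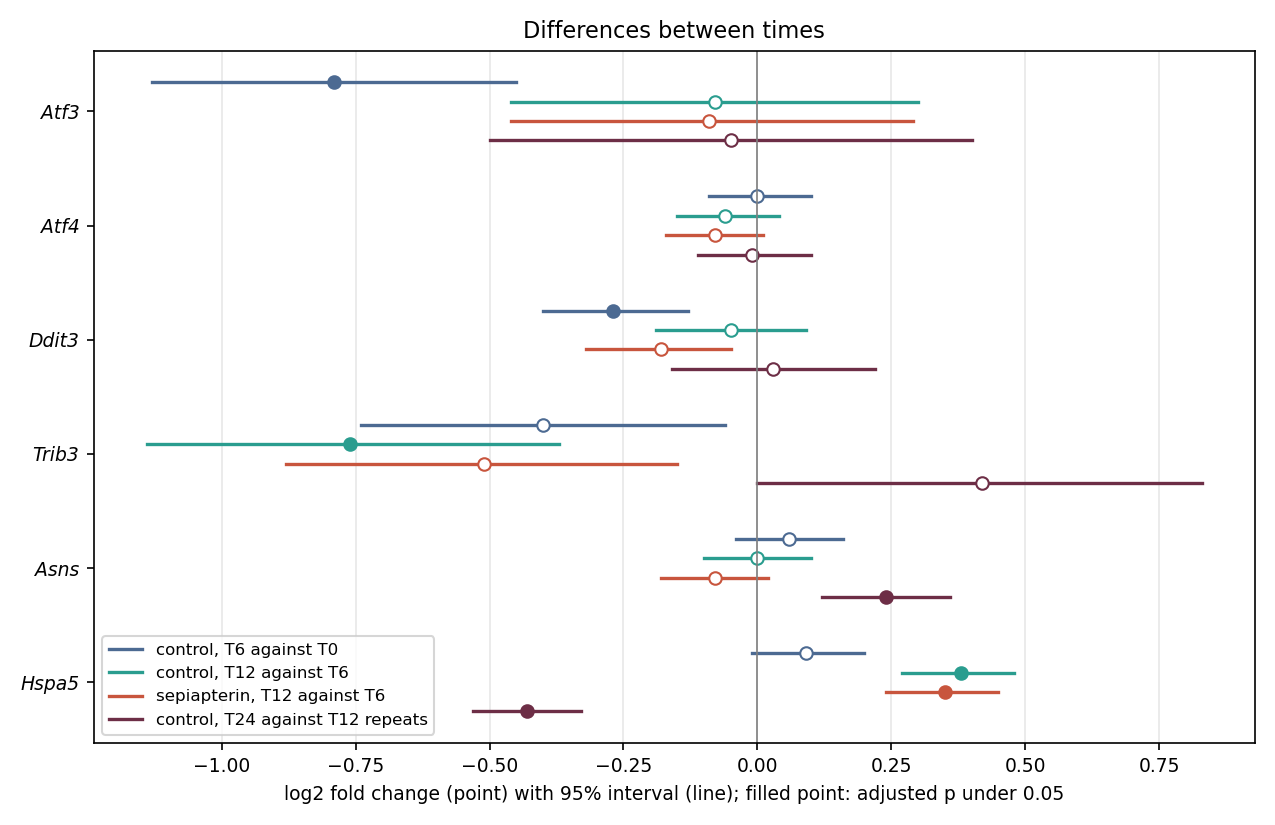
Log2 fold changes (horizontal axis, points) with 95% intervals (lines) of the 6 genes (vertical axis) in 4 comparisons between times, with filled points for adjusted p under 0.05. Hspa5 is at 0.38 and 0.35 between T6 and T12 and at -0.43 between T12 repeats and T24, and Atf4 is near 0 in all 4.

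Sepiapterin changed none of the 6 genes past the test at any time. At T6 0 of the 6 passed with edgeR, beside 0% of 14035 genes, and 0 had an unadjusted p under 0.05. At T12 0 passed, beside 0.0214% of all genes, and 0 had an unadjusted p under 0.05. At T24 0 passed, beside 4.17%, and 1, Asns, had an unadjusted p under 0.05. DESeq2 called 0 of the 6 at T6 and T12 and only Asns at T24, where it called 0%, 2.01% and 7.56% of all genes that it gave an adjusted p. Voom called the same numbers of members, beside 0%, 6.83% and 12.4% of all genes. The share of all genes that edgeR called rested on single libraries. At T24 it was 0.0776%, 0.374% and 10.3% without sepiapterin replicates 1, 2 and 3, and 1.59%, 0.614% and 0.825% without control replicates 1, 2 and 3. At T12 it was 2.18% without control replicate 3 and at most 0.00707% without any other library of that comparison.

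Asns was the gene nearest to a change. At T24 it stood at 147, 147 and 154 CPM with sepiapterin and at 175, 163 and 167 CPM in controls. All sepiapterin libraries lay below all controls, by 1.12-fold, and the log2 fold change was -0.17 ± 0.05, with a 95% interval of -0.27 to -0.07 (adjusted p 0.051). The value stood at this side of the threshold or the other by small choices. The call was made with DESeq2 (adjusted p 0.028), with voom and quality weights (0.032), by file header (0.032), without T24 sepiapterin replicate 3 (0.033), with both libraries of samples 10 and 11 summed (0.041) and with median-ratio scaling (0.050). The adjusted p ranged from 0.028 to 0.25 over 16 alternatives, and the log2 fold change from -0.19 to -0.14. The Asns mean was 168 CPM in T24 controls and 150 CPM with sepiapterin at T24. Means of the remaining groups ran from 141 to 153 CPM. The same T24 controls serve in the comparison with the T12 repeats, where Asns rose. A T24 control value that is high by chance would therefore produce both differences.

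At the earlier times the Asns libraries with and without sepiapterin overlapped. The T6 libraries stood at 153, 152 and 154 CPM against 147, 157 and 136 CPM in controls, and those at T12 at 143, 147 and 144 CPM against 156, 142 and 142 CPM. The log2 fold changes were 0.06 ± 0.05 at T6 and -0.02 ± 0.05 at T12. The effect at T24 minus that at T6 was -0.23 ± 0.07, which did not pass (edgeR, unadjusted p 0.0028, adjusted p 0.20). The effect at T24 minus that at T12 was -0.15 ± 0.07 (adjusted p 0.38).

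Ddit3 showed the next largest ratio of effect to error. At T24 it stood at 14.3, 14.0 and 15.5 CPM with sepiapterin against 15.6, 16.1 and 16.2 CPM in controls, with no overlap. Its log2 fold change was -0.13 ± 0.07, with a 95% interval of -0.27 to 0.02 (adjusted p 0.33). At T12 it was -0.11 ± 0.07, where the T12 control libraries stood at 15.3, 16.2 and 14.2 CPM and overlapped with the treated ones. At T6 it was 0.02 ± 0.07.

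For the chaperone Hspa5 the effect of sepiapterin was -0.04, -0.07 and 0.02 on the log2 scale at T6, T12 and T24, and the 3 intervals together spanned -0.17 to 0.12. For Atf4 it was 0.00, -0.03 and 0.00, within -0.12 to 0.10. These intervals bound any difference in these genes but do not show that there is none. The scarce transcripts were less well bounded. Trib3 had log2 fold changes of -0.06, 0.18 and 0.11, with the widest interval at T12, from -0.22 to 0.59, and Trib3 was covered by 52 to 174 reads per library. Atf3 had -0.03, -0.04 and 0.05, with intervals from -0.43 to 0.46. T24 libraries of Atf3 stood at 3.03, 2.04 and 2.91 CPM with sepiapterin and at 2.56, 2.23 and 2.93 CPM in controls.

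Averaged over the 3 times, 0 of the 6 genes passed with edgeR, beside 1.03% of all genes, and 0 had an unadjusted p under 0.05. DESeq2 also called 0, beside 3.87% of all genes, and voom 0, beside 9.77%. When single libraries were left out the share with edgeR ran from 0.233%, without T6 sepiapterin replicate 3, to 3.15%, without T24 sepiapterin replicate 3. The average was -0.07 ± 0.04 for Ddit3 (adjusted p 0.35) and -0.04 ± 0.03 for Asns (adjusted p 0.45). The effect of sepiapterin did not differ between times past the test for any of the 6. With edgeR 0% of all genes passed for T12 against T6, 0% for T24 against T6 and 0.235% for T24 against T12, and 0, 1 and 1 of the 6 had an unadjusted p under 0.05, Asns in both cases. DESeq2 called 0 of the 6 in each, beside 0%, 0.287% and 1.68% of all genes. Voom called 0 of the 6 in each, beside 0.399%, 3.67% and 5.51%. Without T24 sepiapterin replicate 3 edgeR called 2.63% of all genes for T24 against T6 and 4.0% for T24 against T12.

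**Figure D3:**
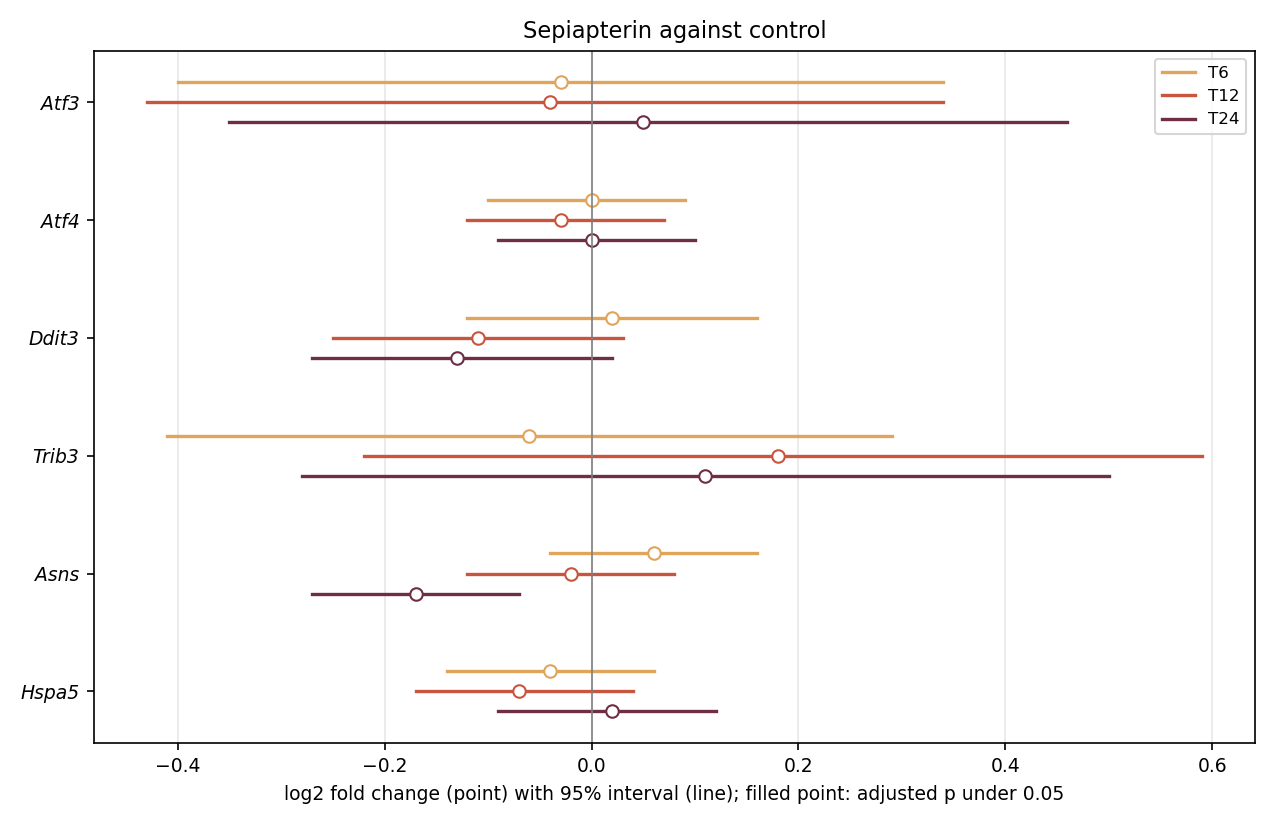
Log2 fold changes of sepiapterin against control (horizontal axis, points) with 95% intervals (lines) for the 6 genes (vertical axis) at T6, T12 and T24. No point is filled, so none passed at an adjusted p under 0.05, and the interval of Asns at T24, -0.27 to -0.07, is the one that does not include 0.

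The paired libraries of T12 controls 10 and 11 show how far values of 1 sample moved between its libraries, here as the library titled repeat minus that titled first, on the log2 scale. In Atf3 the libraries of sample 10 stood at 3.05 and 3.01 CPM and those of sample 11 at 2.24 and 2.31 CPM, differences of -0.02 and 0.04, while the samples differed by 0.42 and 0.37. Trib3 stood at 4.11 and 3.84 CPM in sample 10 and at 2.65 and 3.00 CPM in sample 11. For Atf3, Atf4, Trib3 and Asns both libraries of sample 10 lay above the matching library of sample 11. Ddit3 did not keep such an order: its libraries of 1 sample differed by 0.11 and -0.12, and sample 10 minus sample 11 was -0.08 in the libraries titled first and 0.14 in the repeats.

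The repeats lay above the libraries titled first in both samples for Hspa5, by 0.07 and 0.11, and for Atf4, by 0.03 and 0.11. For Asns they lay below in both, at differences of -0.06 and -0.07 (150 and 135 CPM against 156 and 142 CPM), and these repeats are the libraries against which Asns rose at T24. With 2 samples no test was made. Which library belongs to which batch rests on the titles.

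Across the 21 libraries without the repeats, Atf3, Ddit3 and Trib3 were high in the same libraries and Hspa5 in others. Pearson's r of log2 CPM was 0.80 for Atf3 with Ddit3, 0.66 for Ddit3 with Trib3 and 0.62 for Atf3 with Trib3. It was -0.77 for Trib3 with Hspa5 and -0.58 for Ddit3 with Hspa5. These libraries share the 7 groups, so the values largely repeat the differences between times. After each group's mean was removed the same 5 values were 0.48, 0.24, 0.17, -0.10 and -0.27. The highest value was then that of Atf3 with Asns, at 0.66, where over all 21 libraries it had been -0.12. Atf4 transcripts correlated with Asns at 0.21 over the 21 libraries and at 0.31 with group means removed. No p is given, since libraries of a group are not independent of the design and share depth and batch.

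**Figure D4:**
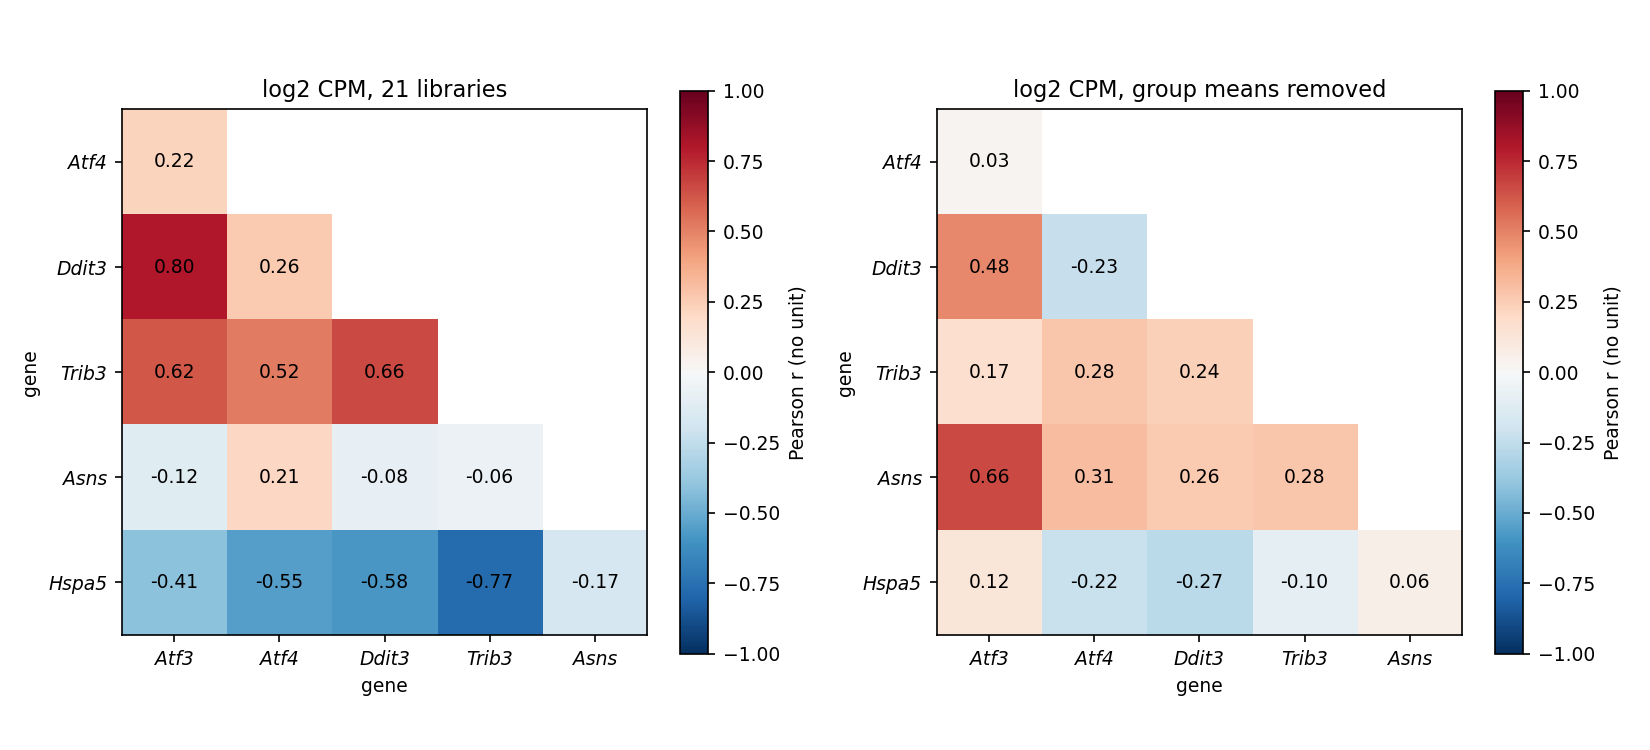
Pearson's r of log2 CPM between pairs of the 6 genes (both axes), over 21 libraries on the left and with each group's mean removed on the right; colour runs from -1 to 1. The negative values of Hspa5 on the left, down to -0.77, are between -0.27 and 0.12 on the right.

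Among the 11955 other genes whose log2 CPM averaged 1 or more, ENSRNOG00000010944 had the pattern most like Hspa5 over the 21 libraries, at an r of 0.93. ENSRNOG00000012604 was most like Ddit3 at 0.90, ENSRNOG00000018796 most like Trib3 at 0.87 and ENSRNOG00000019422 most like Atf3 at 0.85. Each r is the highest of 11955 and was taken with group means left in, so differences between groups enter it. No value with group means removed was computed for these genes. The files do not pair these identifiers with names.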

How the data were processed

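RNA with poly(A) selection was made into 23 stranded libraries, among them the repeat libraries of T12 controls 10 and 11. Each library has 1 deposited file of unscaled read counts for Ensembl genes. The submitters' processing notes name cutadapt 1.8, STAR 2.5.2b, HTSeq 0.6.1 and the build Rnor_6.0. Neither the annotation release nor the strand setting of the counting is stated there, so reads of overlapping genes may be mixed. Reads aligned to several places, 23.49 to 24.99% of those tallied, and reads outside genes, 14.8 to 17.1%, were left out of library sizes.

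Groups follow the titles. The 6 members and the comparisons were chosen with earlier results of these data known. The rule named all 6, any matched gene of a list of stress response genes, and the gene most like each member, with at most 4 identifiers where no symbols could be had. No list of symbols could be matched.

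All genes were tested with edgeR 4.0.16 (R 4.3.3; quasi-likelihood, robust spread, TMM, filterByExpr with a minimum count of 10) in 1 fit of 21 libraries with 14 residual degrees of freedom, and T24 against the T12 repeats in a fit of 8 libraries. P-values were adjusted by Benjamini-Hochberg over the whole table of a fit, with a threshold of 0.05. SE is the log2 fold change divided by the root of F. Log2 CPM used a prior count of 2. The script was tested on simulated data. DESeq2 1.42.0, limma 3.58.1, other scalings, no filter, smaller fits, file headers and leaving out libraries were alternatives. Promoters were read from RefSeq (GRCr8).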

Additional observations from a re-analysis of the deposited data

How the results depend on the processing

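Of 782 recomputed log2 fold changes of single genes, 718 kept their direction and their side of the threshold, 46 changed sign, 9 lost a call and 9 gained one. The calls of Atf3 and Ddit3 between T0 and T6 and of Hspa5 between T6 and T12 (both series) and between T12 repeats and T24 held in every alternative run for them.

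The number of the 6 genes called at T24 with sepiapterin was 0, beside 4.17% of all genes. It was 1 (Asns) with median-ratio scaling, a threshold of 0.1, DESeq2, voom with quality weights, file headers or summed libraries, beside 4.32%, 8.88%, 7.56%, 12.4%, 5.83% and 5.75% of all genes, and 0 to 1 when single libraries were left out, beside 0.0776% to 10.3%. For sepiapterin libraries at T12 against T6 it was 1, beside 4.37%, and it was 2 with the threshold of 0.1, beside 8.94%, or with voom, beside 15.1%. For T24 controls against T12 repeats it was 2, beside 5.54%, it was 1 by file header, beside 0.58%, and 1 to 2 when single libraries were left out, beside 0.159% to 8.88%. For T12 against T6 controls it was 2, beside 4.67%, and 1 to 2 when single libraries were left out, beside 0.543% to 9.87%. Fits that leave an arm with 1 library assume that it varies like the other groups.

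The sign changes were all in values that passed no test. Atf4 at T24 with sepiapterin was on the other side of 0.00 with median-ratio scaling, no filter, DESeq2, the compared groups alone and file headers. It was 0.01 at T6 with library size only, 0.00 and -0.03 between T0 and T6 with upper quartile scaling and with voom, and 0.06 between T12 and T24 by file header. Asns between T6 and T12 controls was -0.01, -0.02, -0.05 and -0.02 with upper quartile scaling, library size only, file headers and summed libraries. At T12 with sepiapterin it was 0.03 by file header and 0.00 with summed libraries. The difference of the sepiapterin effect on Hspa5 between T12 and T6 was 0.01 with voom.

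Leaving out single libraries gave these ranges where the sign changed. With sepiapterin at T6 they were -0.13 to 0.09 for Atf3, -0.04 to 0.01 for Atf4 and -0.17 to 0.11 for Trib3. At T12 they were -0.16 to 0.14 for Atf3, -0.08 to 0.00 for Atf4 and -0.05 to 0.03 for Asns. At T24 they were -0.04 to 0.21 for Atf3, -0.02 to 0.03 for Atf4, -0.01 to 0.35 for Trib3 and -0.01 to 0.04 for Hspa5. The difference of the effect on Hspa5 between T12 and T6 was -0.06 to 0.02. Between T0 and T6 Atf4 was -0.02 to 0.03. Between T6 and T12 controls Atf3 was -0.26 to 0.05, Ddit3 -0.09 to 0.00 and Asns -0.04 to 0.06. Between T12 repeats and T24 they were -0.22 to 0.15 for Atf3, -0.05 to 0.03 for Atf4 and -0.04 to 0.10 for Ddit3. The cause of these changes was not tested.

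No paired analysis was possible because the titles share no replicate number between groups. Over the whole promoter entry, with 50 bases after the start, the composite element was in 3.98% of promoters and the ER stress element in 0.0657%. The low read numbers of Atf3 and Trib3 limit what could be seen in them.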
